A study of Mus musculus with 48 samples.

Results

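The comparison described here set the membrane fraction of mouse embryonic stem cells against their cytosol after 60 min of transcription inhibition. It used 6 of the 48 libraries, 3 replicates of each fraction at 60 min, and the 13293 genes listed in all 6 of them, of 23862 gene identifiers in the series. All 6 libraries came from E14TG2a cells, a mouse embryonic stem cell line, grown in 2i medium with LIF. The cells were given 1 µM flavopiridol, a kinase inhibitor that stops elongation by RNA polymerase II. The fractions were separated by sequential detergent extraction, in which digitonin opens the plasma membrane and releases the cytosol and a stronger detergent then dissolves the endoplasmic reticulum (ER) and mitochondria. No untreated library was analysed here, and the control is the 0 min level to which the authors scaled every value.

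Each value is the amount of a polyadenylated transcript divided by the amount that its own fraction held at 0 min, and 1 stands for an unchanged amount. A gene that is higher in the membrane fraction on this scale lost less there since 0 min than in the cytosol, and its amount in one fraction relative to the other is not given. In bulk libraries fewer cells of a type and less RNA per cell cannot be told apart, nor can decay within a fraction and movement of RNA between fractions. The files state no read depth, so no counting error is given. A library listed between 16001 and 16651 genes. Of the 6 embryonic stem cell markers 5 were listed in all 6 libraries (Esrrb was not), against 2 of 4 primitive endoderm markers and 0 of 4 feeder fibroblast markers.

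Messenger RNAs of secreted and membrane proteins are translated on the ER. The signal recognition particle binds the first hydrophobic stretch of the growing protein as it leaves the ribosome, halts it, and brings ribosome and mRNA to its receptor and to the Sec61 channel. A cleaved signal peptide lies at the very start of the protein, while many membrane proteins use their first transmembrane segment instead. Tail-anchored proteins, whose only segment is at the end, are inserted after translation and need no ribosome at the membrane.

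These stretches can be read in the coding sequence. The first 40 codons are shown for 5 genes that were higher in the membrane fraction, with the 11 codons of highest mean hydropathy (Kyte-Doolittle scale, on which positive values are hydrophobic) in capitals. The 5 are Hsp90b1 and Rcn1, which serve in the ER lumen, Tdgf1, which codes for a Nodal co-receptor at the cell surface, Col4a2, a basement membrane collagen chain, and Sdc4, a surface heparan sulphate proteoglycan.
Hsp90b1: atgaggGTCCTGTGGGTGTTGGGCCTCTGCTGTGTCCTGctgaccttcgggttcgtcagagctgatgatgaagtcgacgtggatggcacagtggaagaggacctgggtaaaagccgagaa
Rcn1: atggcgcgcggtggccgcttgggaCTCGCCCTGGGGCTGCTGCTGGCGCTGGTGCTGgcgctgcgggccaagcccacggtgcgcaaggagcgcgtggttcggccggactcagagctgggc
Tdgf1: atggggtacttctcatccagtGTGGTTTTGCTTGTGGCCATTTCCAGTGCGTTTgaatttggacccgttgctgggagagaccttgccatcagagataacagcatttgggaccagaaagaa
Col4a2: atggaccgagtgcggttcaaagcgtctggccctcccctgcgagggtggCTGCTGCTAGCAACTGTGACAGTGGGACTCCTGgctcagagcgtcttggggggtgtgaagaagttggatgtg
Sdc4: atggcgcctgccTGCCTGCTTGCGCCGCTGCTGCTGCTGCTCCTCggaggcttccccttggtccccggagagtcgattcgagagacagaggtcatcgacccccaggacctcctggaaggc

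Between 7 and 8 of the 11 codons in capitals had T as the middle base, which is the mark of codons for leucine, isoleucine, valine, phenylalanine and methionine, and the mean hydropathy lay between 2.49 for Col4a2 and 3.09 for Rcn1. A pair of genes that were lower in the membrane fraction are shown for contrast, again with their most hydrophobic 11 codons in capitals. Lig1 codes for the DNA ligase that joins Okazaki fragments, and Srp68 for a protein of the signal recognition particle itself, which is made in the cytosol.
Lig1: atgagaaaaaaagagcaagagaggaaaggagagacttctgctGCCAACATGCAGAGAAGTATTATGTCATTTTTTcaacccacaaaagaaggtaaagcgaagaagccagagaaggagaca
Srp68: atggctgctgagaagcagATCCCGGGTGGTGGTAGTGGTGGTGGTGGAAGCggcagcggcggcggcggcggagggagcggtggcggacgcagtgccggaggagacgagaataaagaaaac

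The stretches in capitals had a mean hydropathy of 0.24 in Lig1 and of -0.14 in Srp68, and 5 and 1 of their codons had T in the middle. Membrane proteins without a signal peptide carry their stretch further on. The 19 codons of highest hydropathy are in capitals for Tfrc, the transferrin receptor, whose single transmembrane segment lies at codons 66 to 84 of 763, and for Stx4a, a tail-anchored fusion protein of the plasma membrane, where they are codons 275 to 293 of 298.
Tfrc: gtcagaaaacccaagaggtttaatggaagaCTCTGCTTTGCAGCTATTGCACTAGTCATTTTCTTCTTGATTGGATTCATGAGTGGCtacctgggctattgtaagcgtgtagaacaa
Stx4a: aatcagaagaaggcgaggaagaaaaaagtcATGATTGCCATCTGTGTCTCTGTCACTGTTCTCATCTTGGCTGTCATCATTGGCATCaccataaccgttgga

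The median gene had fallen further in the membrane fraction than in the cytosol. Over the 13293 genes, the library medians of the log2 ratio were -0.37, -0.47 and -0.45 in the membrane fraction and -0.23, -0.32 and -0.16 in the cytosol, so the groups did not overlap. The means were -0.43 ± 0.05 and -0.24 ± 0.08 (SD, n = 3), and the median log2 difference, membrane minus cytosol, was -0.19. Single genes departed from this in both directions.

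Differences of single genes were tested with limma over all 13293 genes, with a Benjamini-Hochberg adjusted p under 0.05 as the threshold. In the membrane fraction 741 genes (5.57%) were higher and 1992 genes (15.0%) were lower, and the median size of a called difference was 0.76 on the log2 scale. The 3 membrane libraries lay above the 3 cytosol libraries for 1665 genes (12.5%) and below them for 4184 genes (31.5%). With libraries centred on the median gene, 1352 genes (10.2%) were higher and 1246 (9.37%) lower, so the share of calls that were higher went from 27.1% to 52.0%. With libraries centred on cytosolic ribosomal protein genes, 932 were higher and 1362 lower. With libraries centred on mt-encoded mRNAs, 280 were higher and 5775 lower. The smallest adjusted p was 0.00689, and leaving out membrane replicate 3 or cytosol replicate 1 left 0 calls in limma. The test treated the libraries as unpaired, and with the replicate number as a block limma also gave 0 calls. Without membrane replicate 1 there were 193 higher and 924 lower, without membrane replicate 2 there were 272 and 662, and without cytosol replicate 3 there were 368 and 604. Unadjusted p-values under 0.05 numbered 4964 with all 6 libraries, and 4084 and 4121 without membrane replicate 3 and without cytosol replicate 1. The p-values cover the spread between the 60 min libraries. The methods do not say whether the 3 replicates of a fraction were divided by 1 common 0 min level, whose error would not show in that spread. For low genes the quotient of libraries of different times takes repeated values, and the 20 commonest values held as many genes for libraries with the same replicate number (a mean of 27.0% in the membrane fraction and 27.3% in the cytosol) as for libraries with different numbers (also 27.0% and 27.3%), as a common level would give.

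Genes whose protein starts with a hydrophobic stretch were more often higher in the membrane fraction than genes without one. Proteins were sorted by hydropathy into 7 classes, which could be done for 9998 of the 13293 genes. An N-terminal segment was 11 residues with a mean of at least 2.2 that ended within the first 40, and any other segment was 19 residues with a mean of at least 1.6. Of 6725 genes without a segment, 108 (1.61%) were higher and 1320 (19.6%) lower, with a median log2 difference of -0.26. Of 562 genes with an N-terminal segment only, the class that holds soluble secreted and lumenal proteins, 114 (20.3%) were higher and 19 (3.38%) lower, with a median of 0.34. Of 747 genes with an N-terminal segment and further ones, 175 (23.4%) were higher and 19 (2.54%) lower, with a median of 0.40. With libraries centred on cytosolic ribosomal protein genes these 3 medians were -0.15, 0.45 and 0.51. Centred on mt-encoded mRNAs they were -0.64, -0.04 and 0.02. No test was made between classes, and the counts are to be read against the 5.57% and 15.0% of all genes.

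**Figure D1:**
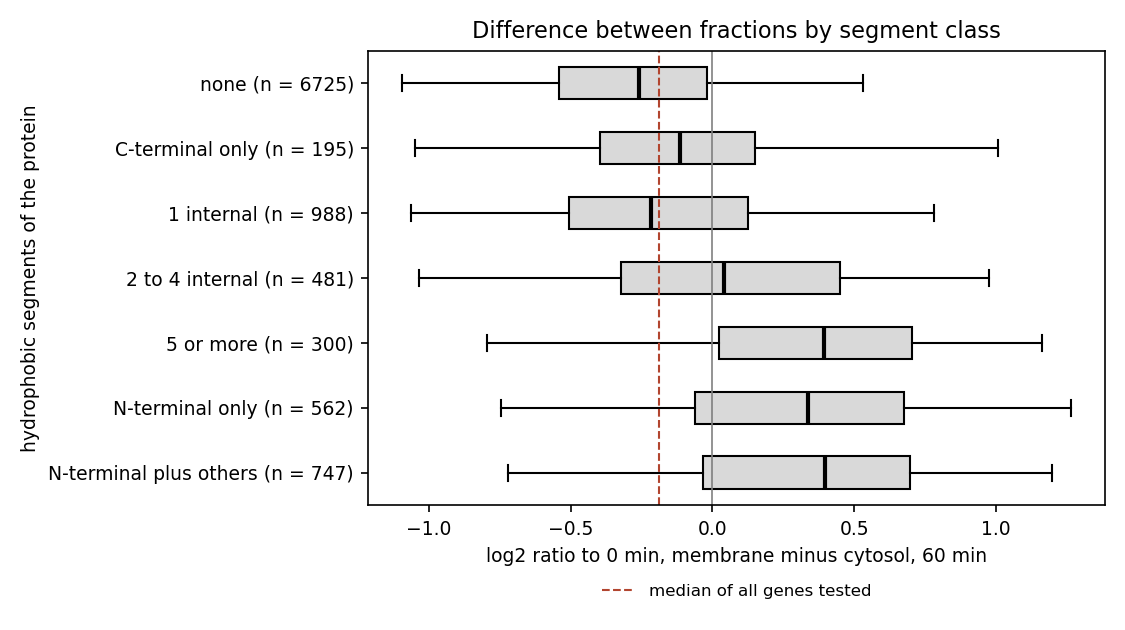
Difference between membrane and cytosol at 60 min for genes of each segment class (y axis, n genes each); the x axis is the log2 ratio to 0 min, membrane minus cytosol, boxes span the quartiles with the median as a line, whiskers reach the 5th and 95th percentiles, and the dashed line is the median of all genes tested. The medians of the classes with an N-terminal segment (0.34 and 0.40) and with 5 or more segments (0.40) lie right of 0, and that of genes with no segment lies at -0.26.

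The number of segments further inside the protein went with the difference as well. Of 300 genes with 5 or more segments and none at the N-terminus, as in many transporters and receptors that cross the membrane repeatedly, 73 (24.3%) were higher and 8 (2.67%) lower, with a median of 0.40. For 481 genes with 2 to 4 such segments the median was 0.04, with 72 higher and 51 lower. The 988 genes with 1 internal segment resembled the whole table, with 48 (4.86%) higher, 172 (17.4%) lower and a median of -0.22. Windows of this hydropathy also occur inside soluble proteins, and the lower genes with 2 to 4 of them included Sf3b1, Cand1 and Psmd2, which code for a splicing factor, a regulator of ubiquitin ligases and a proteasome subunit. With the stricter limits of 2.0 and 2.6, the class with 1 internal segment shrank to 566 genes and its median became 0.21. The class with 2 to 4 then held 394 genes, of which 23.9% were higher and 3.55% lower, with a median of 0.37. That was close to the 130 genes with 5 or more (23.1% higher, 1.54% lower, median 0.39). The 195 genes whose only segment was C-terminal gave 15 higher and 16 lower, with a median of -0.11. With the stricter hydropathy limits this class held 187 genes, of which 26 (13.9%) were higher and 10 (5.35%) lower, and its median was 0.08.

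Both fractions contributed to the difference between classes. For genes with an N-terminal segment and others, the library medians of the log2 ratio were 0.02, -0.17 and 0.02 in the membrane fraction and -0.44, -0.49 and -0.37 in the cytosol. For genes with no segment they were -0.49, -0.56 and -0.55 in the membrane fraction and -0.22, -0.31 and -0.13 in the cytosol. On the deposited scale the order was thus opposite in these classes, and in neither did the fractions overlap. How clear the opposite order was depended on the scaling. Centring on the median gene gave median differences of 0.59 for the class with an N-terminal segment and others and -0.07 for the class with none. Centring on cytosolic ribosomal protein genes gave 0.51 and -0.15, so the order was opposite with both. With mt-encoded mRNAs as the centre the values were 0.02 and -0.64, and the opposite order was nearly lost. The cytosol median log2 ratio of those mt-encoded messages was 0.11 ± 0.07 at 60 min but -0.71 ± 0.11 at 30 min. Membrane replicate 2 had the lowest membrane median in each of the 7 classes, as it did over all genes.

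**Figure D2:**
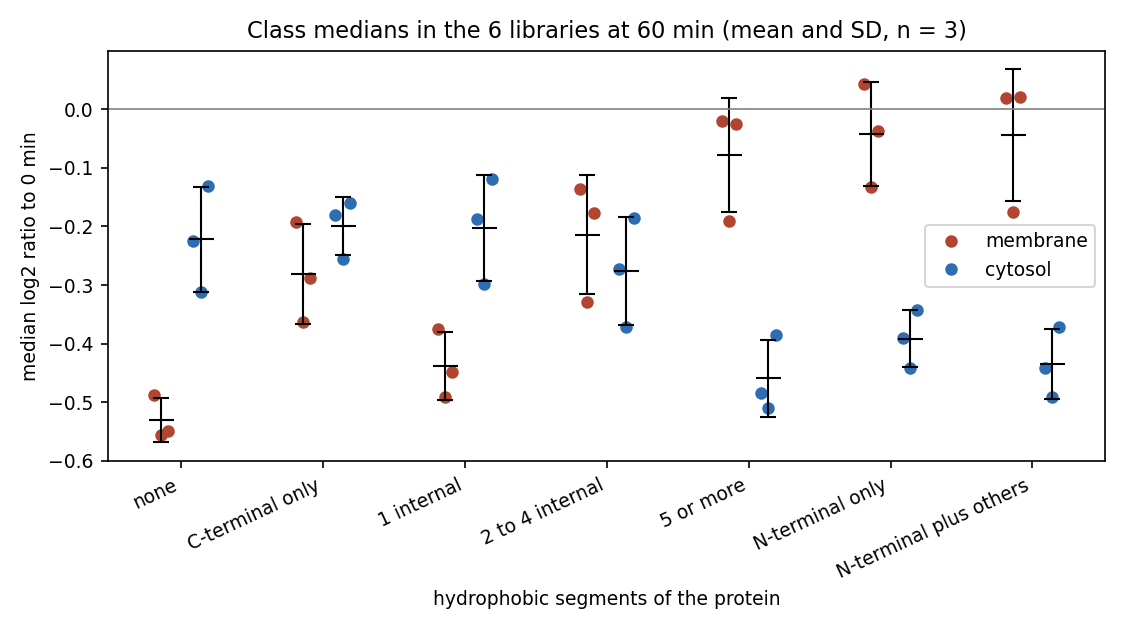
Class medians of the log2 ratio to 0 min (y axis) in each of the 6 libraries at 60 min, by segment class (x axis); each point is a library, and bars give the mean and SD (n = 3). Genes with no segment sit at -0.53 ± 0.04 in the membrane fraction and -0.22 ± 0.09 in the cytosol, while genes with an N-terminal segment and others sit at -0.04 ± 0.11 and -0.43 ± 0.06.

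The difference changed over a narrow range of hydropathy. When genes were sorted by the highest mean of any 11 residues within the first 40, the share higher in the membrane fraction was between 2.88% and 3.52% in each step up to a mean of 1.5. It was 5.01% from 1.5 to 2.0 (999 genes), 15.2% from 2.0 to 2.5 (757 genes), 26.3% from 2.5 to 3.0 (620 genes) and 20.7% above (222 genes). The median log2 difference went from -0.24 at 1.0 to 1.5 to 0.44 at 2.5 to 3.0. Seen from the calls, 47.8% of the classed genes that were higher had an N-terminal segment, compared with 2.37% of those that were lower and 12.6% of those not called. A median of 30% of the first 40 codons had T in the middle among the higher genes, 25% among the lower and 27.5% among those not called. The median GC content of the coding sequence was 53.7% and 51.4%, against 53.5% for genes not called. The median protein length was 466 and 538 residues, against 419 for genes not called.

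Genes of the secretory route were then grouped by role, in 10 lists taken by symbol. Together they held 465 tested genes, of which 139 (29.9%) were higher in the membrane fraction and 12 (2.58%) lower, with a median log2 difference of 0.43. Their library medians of the log2 ratio were 0.08, -0.11 and 0.06 in the membrane fraction and -0.45, -0.42 and -0.33 in the cytosol. After an hour the typical message of these lists was therefore near its 0 min amount at the membrane and below it in the cytosol, and the fractions did not overlap. The median difference was between 0.39 and 0.49 with any 1 library left out. It was 0.54 with libraries centred on cytosolic ribosomal protein genes, with 168 genes higher and 6 lower. With libraries centred on mt-encoded mRNAs it became 0.05, with 42 genes higher and 52 lower, and the medians of the single lists then lay between -0.08 (solute carriers) and 0.24 (ER lumen folding factors). Where a list is said below to have 0 genes lower in limma, between 0 and 2 of its genes had an unadjusted p under 0.05 in that direction.

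**Figure D3:**
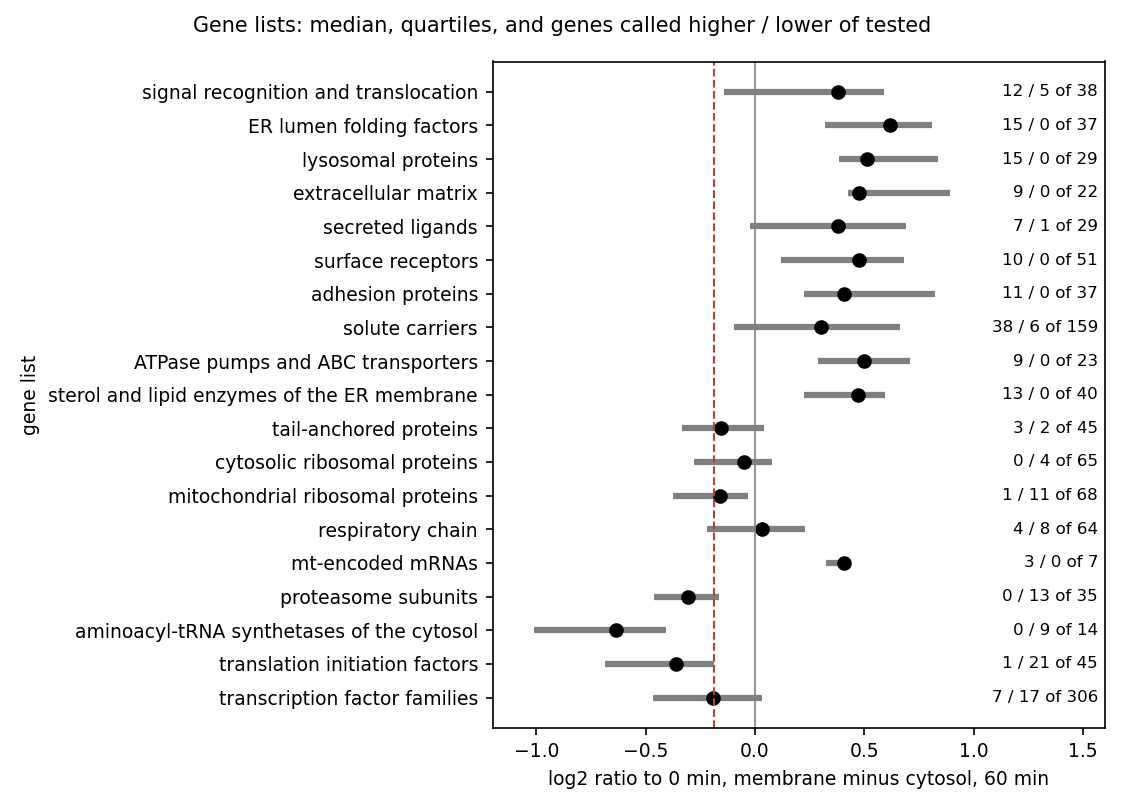
The 19 gene lists (y axis) by their median log2 ratio to 0 min, membrane minus cytosol at 60 min (x axis, points), with bars from the lower to the upper quartile; the dashed line is the median of all genes (-0.19), and the numbers give genes called higher and lower in the membrane fraction of those tested. The 10 lists of the secretory route have medians from 0.30 to 0.62, and the aminoacyl-tRNA synthetases have the lowest median, -0.64.

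Among the receptors, Tfrc takes up iron-bound transferrin. Its ratios were 0.994, 0.948 and 1.08 in the membrane fraction and 0.506, 0.505 and 0.605 in the cytosol. The message was at its 0 min amount at the membrane and near 0.5 of it in the cytosol, with a log2 difference of 0.91 ± 0.12 (SE) and an adjusted p of 0.0137 in limma. Lrp5, a Wnt co-receptor, had 1.31, 1.10 and 1.16 in the membrane fraction and 0.724, 0.678 and 0.608 in the cytosol. Notch1, the receptor of Delta and Jagged ligands, had 0.966, 0.763 and 0.847 against 0.383, 0.461 and 0.453. In each of these genes the libraries of the fractions did not overlap. Of 51 receptor genes 10 (19.6%) were higher and 0 lower, with Notch2, Notch3, Notch4, Bmpr1a, Acvr1b, Smo and Plxna1 among the higher ones and a median of 0.48. Without regard to the test, 26 of the 51 had all membrane libraries above the cytosol libraries and 2 had them below.

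Secreted ligands and their antagonists gave 7 higher and 1 lower of 29, with a median of 0.38. Tdgf1 had the tightest values, 1.05, 1.07 and 1.08 in the membrane fraction and 0.628, 0.667 and 0.649 in the cytosol (log2 difference 0.72 ± 0.08, adjusted p = 0.0126 in limma). Sfrp1, a secreted Wnt antagonist, had 1.18, 1.07 and 1.21 against 0.657, 0.635 and 0.690. Gdf3, a TGF-beta ligand of pluripotent cells, had 0.943, 0.816 and 0.918 against 0.589, 0.663 and 0.705. The lower gene was Mdk, the heparin-binding growth factor midkine, at 1.21, 1.17 and 1.26 in the membrane fraction and 1.56, 1.75 and 1.96 in the cytosol. Both fractions of Mdk lay above the 0 min level, and the cytosol the more so, with a log2 difference of -0.53.

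Folding factors of the ER lumen had a median of 0.62, with 15 of 37 genes (40.5%) higher and 0 lower. Hsp90b1, the ER member of the Hsp90 chaperones, had 1.35, 1.12 and 1.40 in the membrane fraction and 0.671, 0.636 and 0.674 in the cytosol. Rcn1, a calcium-binding protein of the lumen, had 1.24, 1.12 and 1.3 against 0.535, 0.509 and 0.562 (log2 difference 1.19 ± 0.10, adjusted p = 0.0126). Membrane ratios of both exceeded 1 in every replicate. The disulphide isomerases P4hb, Pdia3, Pdia4 and Pdia6 had differences between 0.62 and 0.72, and calreticulin (Calr), a lectin chaperone, had 0.45.

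The machinery that delivers proteins to the ER was divided. Of 38 genes 12 (31.6%) were higher and 5 (13.2%) lower, with a median of 0.38. Sec61a1, the pore of the translocation channel, had 1.2, 1.04 and 1.21 in the membrane fraction and 0.688, 0.727 and 0.685 in the cytosol. The subunits of the oligosaccharyltransferase Rpn1, Rpn2, Ddost, Dad1 and Stt3b, and Srprb, the membrane anchor of the SRP receptor, were also higher, by 0.52 to 1.12. By contrast Srp68 had 0.583, 0.438 and 0.441 in the membrane fraction and 1.21, 0.989 and 1.49 in the cytosol, a log2 difference of -1.33 ± 0.20. Srp54a (-0.98) and Srp72 (-0.58), which like Srp68 code for proteins of the particle in the cytosol, and Emc2 (-0.65), a cytosolic subunit of the ER membrane complex, were lower as well. The remaining lower gene was Ost4 (-0.37), a very short oligosaccharyltransferase subunit. Srp54a has near-identical paralogs, so its reads could be shared with them.

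Lysosomal proteins, which pass through the ER on their way, had 15 of 29 genes (51.7%) higher and 0 lower, with a median of 0.51. Ctsf, a cathepsin, had 1.29, 1.09 and 1.24 in the membrane fraction and 0.650, 0.560 and 0.735 in the cytosol. Lamp1, a membrane protein of the lysosome, had 1.25, 1.1 and 1.23 against 0.860, 0.826 and 0.788. Extracellular matrix genes gave 9 higher and 0 lower of 22, with a median of 0.48. Col27a1, a fibrillar collagen chain, had the largest positive difference among the genes named by rule, with 0.811, 0.664 and 0.774 in the membrane fraction and 0.166, 0.084 and 0.174 in the cytosol (2.47 ± 0.33, adjusted p = 0.0137). Col4a2 had 1.19, 1.05 and 1.14 against 0.597, 0.473 and 0.556. Its cytosol was the higher at 30 min (1.09 ± 0.10 at the membrane against 1.25 ± 0.07, SD, n = 3). The fractions were closer at 120 min (1.19 ± 0.05 against 1.08 ± 0.18) and 240 min (0.933 ± 0.14 against 0.937 ± 0.39). The laminin and nidogen genes Lama1, Lamc1, Nid1 and Nid2 differed by 0.45 to 0.61.

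Adhesion proteins had 11 of 37 genes higher and 0 lower, with a median of 0.41. F11r, a tight junction protein, had 1.18, 1.10 and 1.27 in the membrane fraction and 0.647, 0.708 and 0.628 in the cytosol. Sdc4 had 1.22, 1.16 and 1.15 against 0.620, 0.701 and 0.561. The integrin chains Itgb1 and Itga5 differed by 0.42 and 0.59. Sterol and lipid enzymes of the ER membrane had 13 of 40 higher and 0 lower, with a median of 0.47. Degs1, a desaturase of ceramide synthesis, had 1.04, 0.952 and 1.09 against 0.614, 0.602 and 0.597, and Lpcat1, an acyltransferase of phospholipids, had 1.07, 0.955 and 1.07 against 0.575, 0.624 and 0.564.

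**Figure D4:**
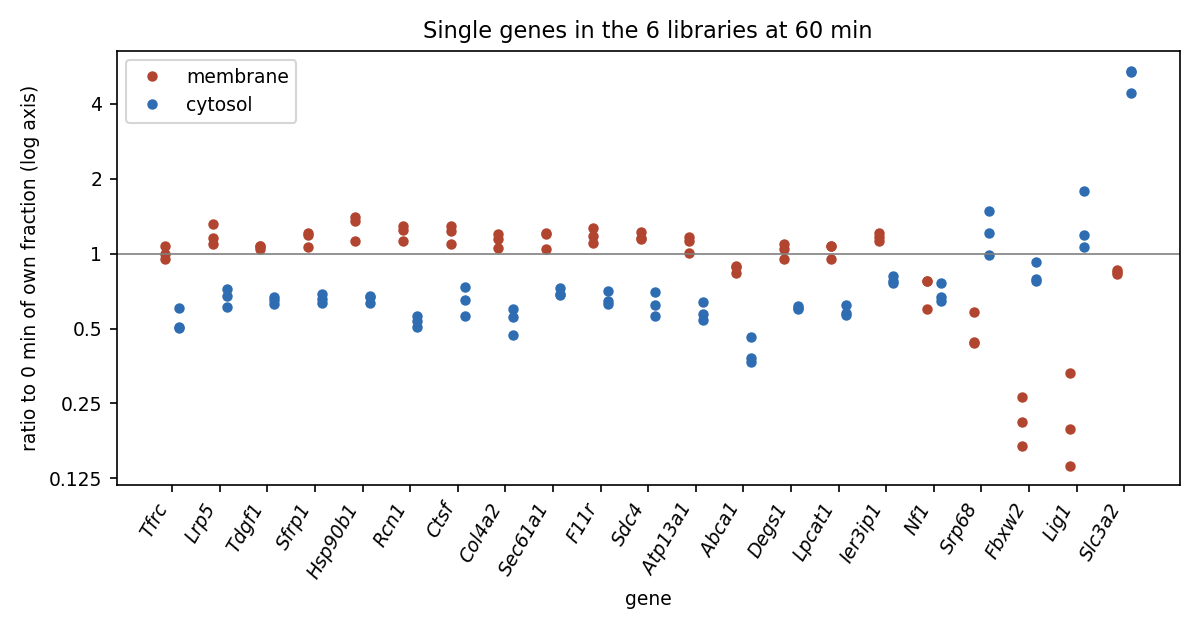
Ratio to 0 min of its own fraction (y axis, log axis) for single genes (x axis) in the 3 membrane and 3 cytosol libraries at 60 min, each point a library. From Tfrc to Ier3ip1 the membrane points lie above the cytosol points, in Nf1 they overlap, and from Srp68 to Slc3a2 they lie below.

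The higher solute carriers all lay outside the Slc25 family. Of 159 solute carrier genes 38 (23.9%) were higher and 6 (3.77%) lower, with a median of 0.30. The Slc25 family, whose proteins are mostly imported into mitochondria, had 0 higher and 3 (9.38%) lower of 32, with a median of -0.13. It was thus near all genes, with 5.57% higher, 15.0% lower and a median of -0.19. The other families had 38 (29.9%) higher and 3 (2.36%) lower of 127, with a median of 0.42. This division was made after the values were seen. Slc1a5, a glutamine carrier, had 1.08, 0.966 and 1.03 in the membrane fraction and 0.542, 0.604 and 0.538 in the cytosol, and Slc24a1, a sodium and calcium exchanger, had 1.48, 1.46 and 1.34 against 0.610, 0.657 and 0.489. Pumps and ABC transporters had 9 of 23 higher and 0 lower, with a median of 0.50. Atp13a1, an ATPase of the ER, had 1.16, 1.01 and 1.12 against 0.570, 0.542 and 0.638, and Abca1, the cholesterol exporter, had 0.896, 0.835 and 0.887 against 0.382, 0.368 and 0.464.

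Slc3a2, the heavy chain that escorts amino acid carriers to the surface, was one of the 6 solute carriers that were lower in the membrane fraction, the others by 0.37 to 0.66 on the log2 scale. Its membrane ratios were 0.846, 0.828 and 0.861 and its cytosol ratios 5.45, 4.40 and 5.38, a log2 difference of -2.58 ± 0.25 (adjusted p = 0.0126 in limma). The cytosol ratio was 2.52 ± 1.3 at 30 min, 9.91 ± 0.36 at 120 min and 12.3 ± 2.4 at 240 min (SD, n = 3), so it was high at each time, whereas total RNA had 0.909 ± 0.36 at 60 min. Its partner Slc7a5 was higher in the membrane fraction, with 1.32, 1.2 and 1.21 against 0.786, 0.955 and 0.858.

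Tail-anchored proteins did not share the pattern of the secretory lists. Of 45 genes 3 (6.67%) were higher and 2 (4.44%) lower, with a median of -0.15, which became 0.03 with libraries centred on the median gene. This list was taken by symbol, so members such as Cyb5r1 need not have a C-terminal segment as their only one. The higher ones on it were Stx4a, Ier3ip1 and Cyb5r1, and the lower ones Gosr1, a Golgi SNARE, and Hmox1, heme oxygenase. Ier3ip1, a short ER protein, had 1.13, 1.17 and 1.21 in the membrane fraction and 0.780, 0.764 and 0.811 in the cytosol, and the class rule found an N-terminal segment in it as well. Stx4a was variable, with 2.63, 1.99 and 1.51 against 1.06, 0.809 and 0.834. Gosr1 had 0.543, 0.507 and 0.594 in the membrane fraction and 0.830, 0.760 and 0.886 in the cytosol.

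The lists for comparison hold mostly proteins that do not enter the ER. Where they had 0 genes higher in limma, between 0 and 2 had an unadjusted p under 0.05 in that direction. Cytosolic aminoacyl-tRNA synthetases, which charge tRNAs, had 0 higher and 9 lower of 14 (64.3%), with a median of -0.64. Lars had 0.519, 0.517 and 0.457 in the membrane fraction and 1.18, 1.06 and 1.18 in the cytosol, and Aars had 0.516, 0.457 and 0.422 against 1.09, 0.922 and 1.11. These messages were thus near or above their 0 min amount in the cytosol and at about 0.5 of it in the membrane fraction. Translation initiation factors had 1 higher and 21 lower of 45 (46.7%), with a median of -0.36. Eif3c had 0.487, 0.429 and 0.407 against 1.07, 0.934 and 1.15. The single higher gene was Eif2ak3, which codes for PERK, the stress kinase of the ER membrane, at 1.14, 0.962 and 1.07 against 0.663, 0.473 and 0.737. Proteasome subunits had 0 higher and 13 lower of 35 (37.1%), with a median of -0.30.

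The remaining comparison lists held smaller shares of lower genes. Transcription factor families had 7 higher and 17 lower of 306 and a median of -0.19, although both fractions had fallen far, with mean log2 medians of -1.21 ± 0.07 at the membrane and -0.97 ± 0.19 in the cytosol. Cytosolic ribosomal proteins had 0 higher and 4 lower of 65 (median -0.05, and 0.14 with libraries centred on the median gene). Mitochondrial ribosomal proteins had 1 higher and 11 lower of 68 (median -0.16, and 0.03 with that centring), and respiratory chain genes of the nucleus 4 higher and 8 lower of 64 (median 0.03). Ribosomal protein and respiratory chain genes have many processed pseudogenes, so their reads could be shared.

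Messages made inside mitochondria, which sediment with the membrane fraction, were listed for 7 of 13 genes, with 3 higher, 0 lower and a median of 0.41. mt-Nd2 had 1.49, 1.47 and 1.61 in the membrane fraction and 1.00, 1.12 and 1.04 in the cytosol. In the cytosol the median log2 ratio of these 7 genes was 0.11 ± 0.07 at 60 min, but -0.71 ± 0.11 at 30 min and -0.83 ± 0.20 at 120 min. The 60 min cytosol libraries therefore stood apart from those of the other times in their mitochondrial messages, and the part of this in the differences was not tested.

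Of the 605 classed genes that were higher, 17.9% had no segment. Pabpc1, the cytoplasmic poly(A)-binding protein, has no segment and had 1.19, 1.07 and 1.11 in the membrane fraction and 0.523, 0.506 and 0.558 in the cytosol. The nuclear splicing factor Son, also without a segment, had 0.881, 0.886 and 0.942 against 0.543, 0.597 and 0.577. Others among the 108 higher genes without a segment were Srpr, which codes for the SRP receptor subunit held at the ER by Srprb, and Pdgfa and Fbn2, which code for secreted proteins whose signal the hydropathy rule missed in the sequence used. In the opposite group of 38 genes with an N-terminal segment that were lower, Xrcc5, the Ku80 subunit of DNA end joining, is a nuclear protein. It had 0.682, 0.586 and 0.575 in the membrane fraction and 1.10, 0.977 and 1.16 in the cytosol. The sodium-coupled inositol carrier Slc5a3 and the exchanger Slc24a5 belonged to this group too. These genes were chosen after their values were seen.

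The largest single differences were taken by size alone among genes listed in all 48 libraries. Besides Col27a1, the higher ones were Nfasc (2.32), an axonal adhesion protein, Fam189a2 (2.28), Taf1 (2.19), a subunit of the general factor TFIID, Mir3082 (2.11), Cox6c (2.11), a cytochrome oxidase subunit, Fetub (1.96), a secreted protease inhibitor, and Osgep (1.91), a tRNA-modifying enzyme. Taf1 had 5.86, 3.03 and 6.61 in the membrane fraction and 1.38, 1.06 and 0.846 in the cytosol, and total RNA was at 2.36 ± 0.16. Mir3082 lies within Stub1 on the same strand, and its reads may come from that gene. Of these 8 genes 5 have an N-terminal segment or several internal ones, Cox6c among them although it is a mitochondrial protein, and Taf1 and Osgep have none.

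The lower ones were Lig1 (-2.65), Rnf212b (-2.59), a meiotic RING finger protein, Slc3a2, Grb10 (-2.57), an adaptor of insulin signalling, Per1 (-2.16), a clock repressor, Epb41l2 (-2.01), a protein of the membrane skeleton, Fbxw2 (-1.97), an F-box protein, and Cklf (-1.91), a chemokine-like factor. Of these 8, only Slc3a2 and Cklf had a segment. Lig1 had 0.198, 0.141 and 0.331 in the membrane fraction and 1.79, 1.19 and 1.06 in the cytosol, and Fbxw2 had 0.266, 0.210 and 0.169 against 0.778, 0.792 and 0.928. Replicates spread widely in some, as in Rnf212b, whose cytosol ratios were 2.65, 6.30 and 1.85. Lig1 overlaps Zswim9 on the opposite strand, and the labels do not say whether the counting used strand. Nf1, a Ras regulator and an example used by the study, had overlapping fractions, at 0.598, 0.779 and 0.776 against 0.672, 0.645 and 0.759 (log2 difference 0.05 ± 0.15, adjusted p = 0.850).

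The other fractions at 60 min place these groups. For the genes higher in the membrane fraction, the median log2 ratio was 0.15 ± 0.08 at the membrane, -0.62 ± 0.04 in the cytosol, -0.73 ± 0.11 in the nucleus and -0.47 ± 0.10 in total RNA (717 genes listed in all 12 libraries). For the genes lower there, it was -0.80 ± 0.05 at the membrane, -0.07 ± 0.08 in the cytosol, -0.39 ± 0.12 in the nucleus and -0.36 ± 0.08 in total RNA (1954 genes). The membrane and cytosol values chose these genes and are a description. In both groups total RNA lay between the membrane fraction and the cytosol.

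The same groups at the other times, over the 11086 genes listed in all 24 membrane and cytosol libraries, are given as a description, since the times of a fraction share their 0 min level. For genes with an N-terminal segment and others the median difference was 0.31 at 30 min, 0.42 at 60 min, 0.45 at 120 min and 0.24 at 240 min. For genes without a segment it was -0.08, -0.26, -0.19 and -0.02. For all genes it was -0.05, -0.19, -0.11 and 0.01. ER lumen folding factors stayed between 0.50 and 0.53 at the 4 times, while surface receptors went from 0.41 at 60 min to -0.08 at 240 min. Aminoacyl-tRNA synthetases had -0.17 at 30 min, -0.64 at 60 min, -0.83 at 120 min and -0.54 at 240 min.

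**Figure D5:**
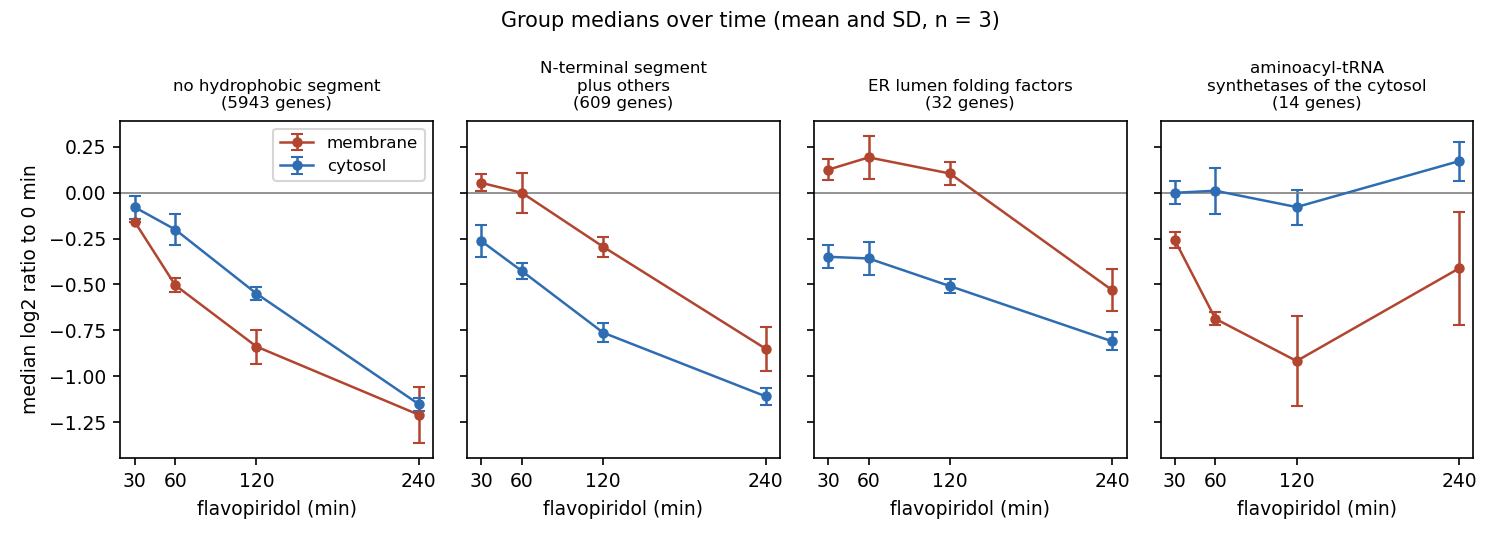
Median log2 ratio to 0 min (y axis) of 4 gene groups in the membrane fraction and the cytosol against time in flavopiridol (x axis, min), with the mean and SD of 3 libraries. At 60 min the membrane line lies below the cytosol line for genes with no segment and for aminoacyl-tRNA synthetases, and above it for genes with an N-terminal segment and others and for ER lumen folding factors.

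A second test asked whether the change from 30 to 60 min differed between the fractions, a contrast from which the 0 min level falls out. Of 12676 genes listed in all 12 libraries, 3 (0.0237%) passed in limma, and 2135 had an unadjusted p under 0.05. Of the latter, the change was higher in the membrane fraction for 314 and lower for 1821. With libraries centred on the median gene these numbers were 917 and 893. Tfrc did not pass (0.38 higher in the membrane fraction, adjusted p = 0.234). On the 6 libraries of 60 min alone, genes listed in all 3 membrane libraries and in no cytosol library numbered 749, and 365 were listed the other way round. These could not be tested, since a gene at 0 is not listed.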

How the data were processed

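The deposited values are ratios to 0 min of the own fraction. According to the study's methods, the authors sequenced TruSeq stranded polyadenylated libraries, aligned reads with STAR 2.7.6 to mm10, counted them with RSEM 1.3.3, scaled libraries on genes with long half-lives and divided each series by its 0 min level. Genes at 0 are not listed, the depth is unknown, and the number of libraries limits the precision. The last time is 240 min in the titles and 180 min in the protocol text. The 3 replicates of a fraction were independently passaged cultures.

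Here log2 ratios without a pseudocount were tested in R 4.3.3 with limma 3.58.1 (a two-sided moderated test with a trend in the spread, and Benjamini-Hochberg adjustment over all genes tested), between 3 membrane and 3 cytosol libraries, and, for the change from 30 to 60 min, as an interaction over 12 libraries. Summaries used Python 3.11.15. Segment classes came from 1 GENCODE M21 (GRCm38) coding sequence a gene, translated in place of a protein table, with 14230 translated and 13 left out. Printed sequences come from the same transcripts. Of 23862 identifiers, 23786 had a symbol. The members and gene lists were chosen with earlier results of these data known. Named genes were Tfrc and Nf1, the 8 largest differences in each direction among called genes listed in all 48 libraries whose fractions did not overlap (predicted genes and pseudogenes skipped), and the 2 members of each list of the secretory route and of the tail-anchored list with the smallest p. Some results are not reported here. Genes added after seeing values were members of the lists that passed the test or exceptions to the classes.

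Simulated data with 200 changed genes gave, among 13293 genes, 20% of changes of 1 and 69% of changes of 2 (log2) recovered, with 6 calls among unchanged genes. For the change from 30 to 60 min, among 12676 genes, these were 27% and 78%, with 5. The noise was drawn for each gene separately, so shifts shared by a whole library and 0 min error were not simulated. The 200 changed genes were also fewer than the 2733 called at 60 min, so these shares need not hold for the data. Alternatives were pseudocounts of 0.1 and 1, other filters, 3 centrings, limma without trend or robust, a spread from 24 libraries, a replicate block, stricter hydropathy limits and each library left out.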

Additional observations from a re-analysis of the deposited data

Results flagged for a closer look

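In 3 genes the change from 30 to 60 min differed between the fractions in limma's interaction test over 12676 genes (Benjamini-Hochberg adjusted). Ocrl, which codes for an inositol phosphatase of endosomes and the Golgi, had membrane ratios of 1.97, 1.22 and 1.5 at 30 min and 0.657, 0.711 and 0.626 at 60 min, and cytosol ratios of 0.502, 0.417 and 0.451 and then 0.663, 0.772 and 0.696. The difference of the changes, membrane minus cytosol, was -1.85 on the log2 scale (adjusted p = 0.0483). The membrane message fell while the cytosolic one was higher at 60 min in each replicate.

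Col4a2 had membrane ratios of 1.2, 0.998 and 1.07 at 30 min and 1.19, 1.05 and 1.14 at 60 min, and cytosol ratios of 1.26, 1.31 and 1.18 and then 0.597, 0.473 and 0.556, a difference of 1.27 (adjusted p = 0.0483). Its cytosol ratio was 1.08 ± 0.18 at 120 min, so 60 min stood apart from the times on both sides. Col4a2 overlaps Col4a1 on the opposite strand.

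mt-Nd6, a complex I subunit made in mitochondria, had membrane ratios of 1.29, 1.21 and 1.27 at 30 min and 1.31, 1.24 and 1.34 at 60 min, and cytosol ratios of 0.538, 0.535 and 0.514 and then 1.10, 1.13 and 1.14. The difference was -1.04 (adjusted p = 0.00597). It overlaps mt-Nd5 on the opposite strand, and over the 7 mitochondrial messages listed the cytosol median (log2 ratio) was -0.71 ± 0.11 at 30 min and 0.11 ± 0.07 at 60 min.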

How the results depend on the processing

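The counts of single genes depended on the scaling and on single libraries. Against 741 genes higher and 1992 lower, centring on the median gene gave 1352 and 1246. Centring on cytosolic ribosomal protein genes gave 932 and 1362, and on mt-encoded mRNAs 280 and 5775. The replicate block, with 2 residual degrees of freedom, gave 0 and 0 in limma (4834 with an unadjusted p under 0.05), and 1 gene for the change from 30 to 60 min. The main test treated the samples as unpaired. In the study's methods both fractions are extracted in turn from the same cell pellet, so same-numbered libraries may be paired, which the labels do not state. Deviations of same-numbered membrane and cytosol libraries correlated at 0.040, 0.031 and 0.030, and those of different numbers at between -0.025 and -0.006. Each library thus correlated best with its own number, though weakly. Leaving out 1 library gave 0 to 497 higher and 0 to 1552 lower, and 0 to 1 gene, against 3, for the change from 30 to 60 min. That count was 1 with a pseudocount of 0.1 or with genes listed in at least 2 of 3 libraries, 0 with a pseudocount of 1 or a spread from 24 libraries, and 1631 with mt-encoded centring. The median of genes with an N-terminal segment and others exceeded that of genes without one by 0.66, and by 0.28 with a pseudocount of 1. Such a pseudocount compresses all log2 differences by construction, the more so the lower the ratios. The secretory lists exceeded all genes by 0.62, and by 0.27 with that pseudocount. Centring, limma's settings, the 24-library spread and the block leave both unchanged by construction, and the other alternatives run moved them by less than the spread between replicates. Of the 37 named genes, none passed under the replicate block, without membrane replicate 3 or without cytosol replicate 1, where limma called 0 genes. Without each other library, between 5 and 10 of them counted as weaker. Only Nf1 reversed, to -0.34 with mt-encoded centring. With 1 library left out it lay between -0.020 and 0.17 (-0.016 without membrane replicate 3 and -0.004 without cytosol replicate 2). The cause of these moves was not tested. Limits: p-values may hold no 0 min error, and absolute directions depend on the reference genes.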
